A study of Mus musculus with 4 samples.

Results

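The livers compared here came from male mice of strain C57Bl/6J that ate an atherogenic diet with added high fat, set against livers of mice of the same strain and sex on standard chow. The comparison was made on 2 of the 4 arrays of the series, chosen by their labels: 1 array for 6 weeks on the diet and 1 for 24 weeks. The other 2 arrays held livers after the plain atherogenic diet at the same durations, again against chow. They serve here as a comparison for the high-fat livers and as a further source for the spread between arrays. Every array was a competitive hybridisation in 2 colours, with RNA from the diet livers in Cy5 and RNA from the chow livers in Cy3, and both RNAs had been amplified. No dye swap was among the arrays, so a dye preference of a probe cannot be told apart from the diet. The composition of the diets, the age and number of the mice, pooling, and whether a chow sample served on more than 1 array are not stated in the labels or the design text.

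An atherogenic diet for mice is rich in cholesterol and usually holds a bile acid, so the liver receives more sterol than it can use. Hepatocytes answer sterol by lowering their own synthesis through the SREBP transcription factors, by pumping sterol into bile through transporters under control of LXR, and by adjusting the conversion of cholesterol to bile acids. Lipid that stays in the liver is taken up by macrophages, and prolonged loading of this kind in mice is known for inflammation and for scarring by collagen.

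The values are log2 ratios of diet over chow per gene, the mean of the probes that name 1 gene. They hold no level of a gene in either liver, so the labelled tissue could not be checked against the abundance of liver markers. Of 28845 probes, 17255 named ones had a value on both high-fat arrays and gave 13717 genes. The SD of the probe ratios was 0.37 at 6 weeks and 0.39 at 24 weeks, against 0.53 and 0.46 on the plain atherogenic arrays. A change was accepted at a Benjamini-Hochberg adjusted p under 0.05 in limma, fitted to the mean of the 2 arrays against 0. Because each duration had 1 array, the 2 durations served as the replicates, the p-values measure the spread between these 2 arrays, and no change between 6 and 24 weeks was tested. The SE given below is limma's moderated SE, with n = 2 arrays throughout.

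A total of 2838 genes (20.7%) passed, 1281 of them (9.34%) higher and 1557 (11.4%) lower than in chow liver. A gene with opposite signs on the 2 arrays could not pass this test at the threshold, so all that passed had 1 sign. Of those that passed, 1945 changed by less than 1.5-fold. At least a 2-fold change on both arrays was seen in 199 genes (1.45%), 62 higher (0.452%) and 137 lower (0.999%), and no gene was 2-fold changed in opposite directions. Across the 13717 genes, which are not independent replicates, the arrays correlated with Pearson's r = 0.82 and Spearman's rho = 0.76. A gene's ratios on the 2 arrays differed by a median of 0.11 and at the 95th percentile by 0.44. With the spread shared with the plain atherogenic arrays, in a limma fit of all 4 arrays with a mean per diet, 828 genes passed, and with either high-fat array left out none did (1393 without the 6-week and 1241 without the 24-week array at an unadjusted p under 0.05). That fit of 4 arrays is called the shared-spread fit below. Of 13705 genes in it, 315 were higher and 513 lower, the background for the list counts it gave.

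**Figure D1:**
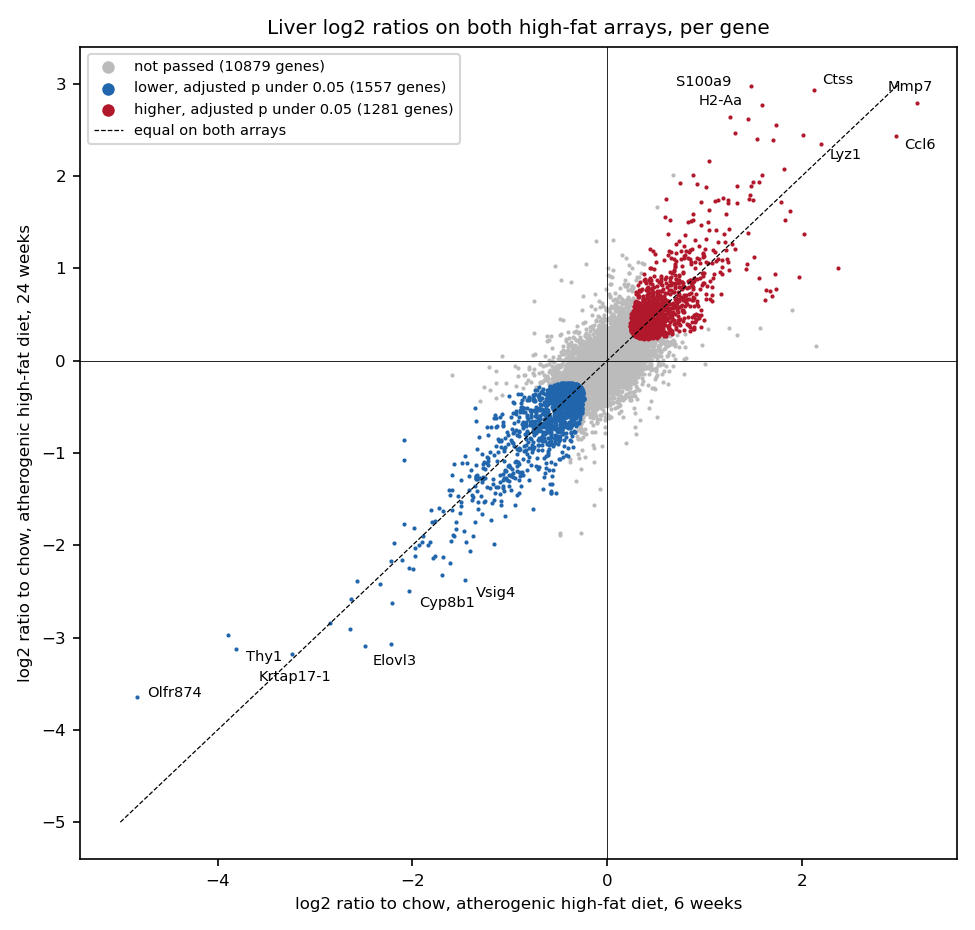
Each point is 1 of 13717 genes, with its log2 ratio to chow on the 6-week high-fat array (horizontal axis) and on the 24-week high-fat array (vertical axis). Colours mark the 1281 genes that passed as higher and the 1557 as lower, the dashed line marks equal ratios, and the genes farthest from 0 lie near that line in both directions.

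The 12 largest rises were led by a matrix protease, a chemokine and a lysosomal protease. All but Lcn2, which had 2 probes, rested on a single probe. Mmp7, a matrix metalloproteinase of injured epithelium, had a log2 ratio of 3.19 at 6 weeks and 2.79 at 24 weeks (mean 2.99 ± 0.11 SE, 7.93-fold, adjusted p = 0.00285). Ccl6, a chemokine of myeloid cells, stood at 2.97 and 2.43 (6.49-fold, adjusted p = 0.0038), and Ctss, the lysosomal protease cathepsin S, at 2.12 and 2.93 (5.77-fold, adjusted p = 0.00692). Both were far above 0 at either duration. Lyz1, a lysozyme, was nearly equal on the arrays, at 2.20 and 2.35. S100a9 and S100a8, the calcium-binding proteins of neutrophils, were lower at 6 weeks (1.48 and 1.26) than at 24 weeks (2.98 and 2.64). Ly6d had ratios of 2.02 and 2.44, Lcn2, an iron-scavenging acute phase protein, 1.74 and 2.56, Tspan8, a tetraspanin of epithelium, 1.45 and 2.62, and H2-Aa, a chain of MHC class II, 1.59 and 2.77. The other two of the 12 largest rises were Snx4, a sorting nexin, at 1.70 and 2.39, and Nelfa, a subunit of the negative elongation factor, at 1.54 and 2.40.

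The largest falls were in 1 lipid enzyme, sensory receptors, a keratin-associated protein and genes of other kinds. Elovl3, which elongates very long chain fatty acids and is a male-biased liver gene, fell to -2.49 at 6 weeks and -3.09 at 24 weeks (mean -2.79 ± 0.16 SE, 6.93-fold lower, adjusted p = 0.00398). The gene farthest below chow was Olfr874, an odorant receptor, at -4.83 and -3.65 (18.9-fold lower, adjusted p = 0.00535). Thy1, a surface protein of T cells and fibroblasts, followed at -3.81 and -3.12 (11.1-fold lower, adjusted p = 0.0038). Krtap17-1, a hair keratin-associated protein, had -3.23 and -3.18, and Ammecr1 -2.85 and -2.84. Nudt12os, Vmn1r179, Zfp764, Calcb, Btbd11, Rnf103 and Lcn12 completed the 12, with mean ratios between -3.43 and -2.37. All 12 had a single probe.

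**Figure D2:**
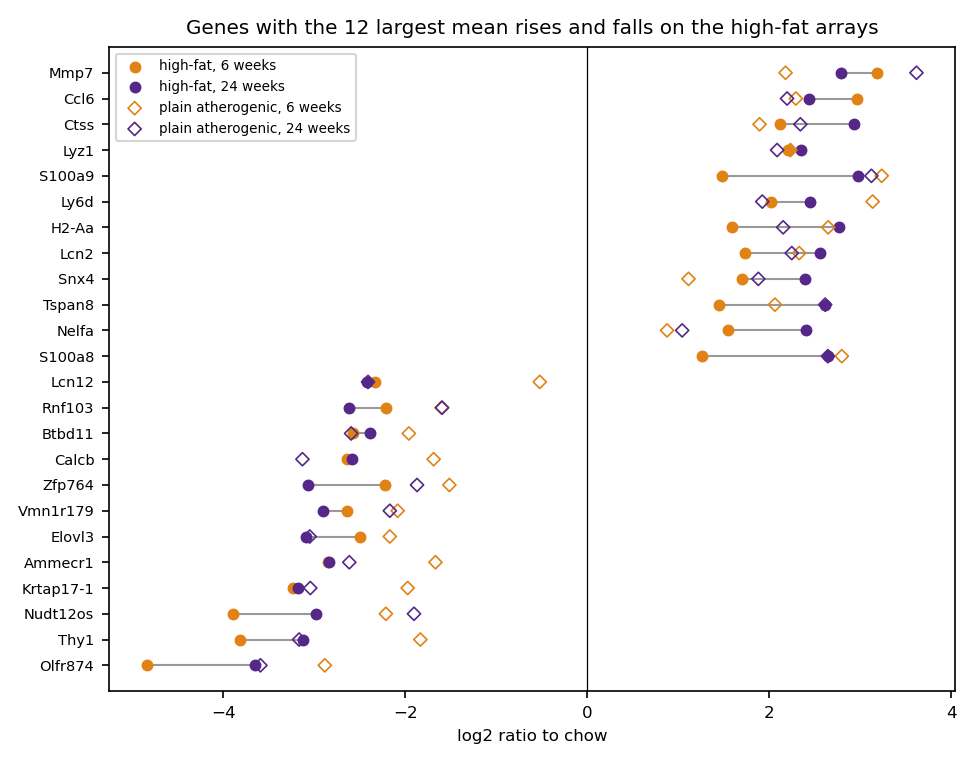
Filled circles give the log2 ratio to chow on the high-fat arrays at 6 weeks (orange) and 24 weeks (purple), joined by a line, for the 12 genes with the largest mean rises and the 12 with the largest mean falls that passed. Open diamonds give the plain atherogenic arrays. Mmp7 leads the rises at 3.19 and 2.79, and Olfr874 the falls at -4.83 and -3.65.

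Odorant and vomeronasal receptors, a group chosen after their values were seen, were also counted as a whole. Of 815 measured, 128 were lower and 50 higher (against 11.4% and 9.34% of all genes). The share changed was 21.8%, against 20.7% of all genes, with a median log2 ratio of -0.05 on either array against -0.01 over all genes. At least a 2-fold fall on both arrays was seen in 16 of the 815, against 137 of all 13717 genes (0.999%). A 2-fold rise on both was seen in none, against 62 of all genes (0.452%). These receptors belong to large families of similar sequence, and probe sequences were not used here.

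Of 17 measured genes of the pathway from acetyl-CoA to cholesterol, 7 fell, none rose and 10 did not pass (against 11.4% of all genes lower), with list medians of -0.36 at 6 weeks and -0.28 at 24 weeks. In the shared-spread fit 3 of the 17 were lower (against 513 of 13705 genes). Short stretches upstream of 4 of the genes that fell are printed here because CCAAT, the box bound by the NF-Y factor that works beside SREBP at sterol genes, was present upstream of every measured member with a sequence. The stretches are the 120 bases before the annotated start in RefSeq's assembly GRCm38.p6, given 5′ to 3′ on the gene's strand, with CCAAT or its reverse complement ATTGG in capitals. They lie at chr7:143830094-143830213 (plus strand) for Dhcr7, chr19:6067851-6067970 (minus) for Tm7sf2, chr13:8885486-8885605 (plus) for Idi1 and chrX:8193513-8193632 (minus) for Ebp, all outside the transcript as that start defines it.
Dhcr7: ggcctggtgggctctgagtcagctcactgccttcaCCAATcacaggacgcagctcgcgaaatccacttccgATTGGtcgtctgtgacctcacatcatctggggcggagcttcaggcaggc
Tm7sf2: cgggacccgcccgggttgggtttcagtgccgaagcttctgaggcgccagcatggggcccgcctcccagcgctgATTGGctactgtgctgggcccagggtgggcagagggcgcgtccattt
Idi1: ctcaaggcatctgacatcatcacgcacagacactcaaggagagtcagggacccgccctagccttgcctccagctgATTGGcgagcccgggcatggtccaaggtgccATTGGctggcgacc
Ebp: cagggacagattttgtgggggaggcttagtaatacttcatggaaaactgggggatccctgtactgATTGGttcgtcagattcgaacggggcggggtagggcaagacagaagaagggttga
Dhcr7 and Idi1 show 2 boxes each, Tm7sf2 and Ebp 1 each, the nearest 14 to 55 bases before the start. Within 250 bases upstream, on either strand, CCAAT was found for 14 of the 14 measured members with a RefSeq window, 6 of which fell. It was found for 37.5% of all 27025 genes with a window, and in 33.9% of all 32851 windows. The sterol element written TCACNCCAC was found for none of the 14, for 1.225% of all genes with a window and in 1.05% of all windows. A match describes these letters and is no evidence of binding.

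Dhcr7, which makes cholesterol from 7-dehydrocholesterol in the last step, stood at -1.33 at 6 weeks and -1.61 at 24 weeks (2.77-fold lower, adjusted p = 0.00494). Tm7sf2, a sterol C14 reductase, had -1.60 and -1.24 (2.68-fold lower, adjusted p = 0.00604). These were the 2 members at least 2-fold lower on both arrays. Idi1, the isopentenyl diphosphate isomerase, had -1.10 and -0.61, and Ebp, a sterol isomerase, -0.94 and -0.75. Sqle, squalene epoxidase, had -0.70 and -0.51, Msmo1, which removes a methyl group from the sterol ring, -0.44 and -0.48, and Hsd17b7 -0.36 and -0.28. Idi1, Sqle, Msmo1 and Hsd17b7 did not pass in the shared-spread fit. Of the regulators, Srebf2, the SREBP of cholesterol genes, was close to 0 (-0.07 and -0.04, adjusted p = 0.55). Srebf1, the SREBP of fatty acid genes and itself a target of LXR, rose (0.55 and 0.89, 1.65-fold, adjusted p = 0.0191), with its 3 probes between 0.61 and 0.81. Scarb1, the HDL receptor, was the only other one of 10 genes of sterol regulation and uptake to pass (0.26 and 0.40), and it did not in the shared-spread fit. The share of this list that changed was 20%, near the 20.7% of all genes.

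Among genes of sterol export, Abcg5 and Abcg8, which together form the transporter that moves sterol into bile, rose: Abcg5 had 0.99 and 0.95 (1.96-fold, adjusted p = 0.00537) and Abcg8 0.79 and 0.53 (1.58-fold, adjusted p = 0.0179). Npc2, which hands cholesterol out of lysosomes, rose to 0.88 and 1.21. Lpl, lipoprotein lipase, rose to 1.83 and 1.53 (3.20-fold, adjusted p = 0.00403). Abca1, which loads cholesterol onto apolipoprotein A-I, had 0.09 and 0.25 and did not pass (adjusted p = 0.168), nor did Nr1h3, which encodes LXR alpha (0.24 and 0.15). Of 11 genes in this list 4 were higher and 1 lower (against 9.34% and 11.4% of all genes). The lower one was Apoe at -1.24 and -1.10, and 1 of its 2 probes carried a repeated value described with the hepatocyte genes.

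Of 21 measured genes of bile acid synthesis 4 fell and 1 rose, a share of 23.8% near the 20.7% of all genes, with medians of -0.21 and -0.12. Cyp8b1, the sterol 12-alpha-hydroxylase that decides how much cholic acid is made, fell to -2.04 at 6 weeks and -2.49 at 24 weeks (mean -2.26 ± 0.13 SE, 4.80-fold lower, adjusted p = 0.00398). Cyp7b1, the oxysterol hydroxylase of the alternative route, fell to -1.98 and -1.81 (3.72-fold lower, adjusted p = 0.00285). Cyp27a1, which opens that route, had -0.42 and -0.26, and Scp2, a peroxisomal thiolase and sterol carrier, -0.43 and -0.36. Cyp39a1 was higher at 0.76 and 0.68. These last 3 did not pass in the shared-spread fit. Cyp7a1, the rate-limiting enzyme of the main route, lay below 0 on both arrays (-0.47 and -0.20) without passing (adjusted p = 0.0667). Nr0b2, the repressor SHP that bile acids induce through FXR, had 0.21 and 0.00 (adjusted p = 0.381).

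Of 13 carriers of bile acids and other anions 3 fell and 1 rose (30.8% changed, against 20.7% of all genes). Slco1a1, an organic anion transporter, fell more at 6 weeks (-2.09) than at 24 weeks (-1.07), with an adjusted p of 0.0229. Slc10a1, the sodium-dependent bile acid carrier NTCP, had -0.61 on both arrays, over 3 probes with means from -0.78 to -0.42. Slc22a7 had -0.59 and -0.28 and Slco1a4, the carrier that rose, 0.35 and 0.26. Of these 4, Slco1a1 alone passed in the shared-spread fit.

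Of 21 genes of fatty acid synthesis and desaturation 3 rose and Elovl3 fell, and the share changed (19.0%) lay near that of all genes (20.7%). Thrsp, a nuclear and cytosolic protein that promotes lipogenesis, rose to 0.88 at 6 weeks and 2.01 at 24 weeks (2.73-fold, adjusted p = 0.032). Scd1, the stearoyl-CoA desaturase, had ratios of 1.14 and 1.10 (2.17-fold, adjusted p = 0.00424). Fasn, fatty acid synthase, had 0.33 and 0.28 as the mean of 2 probes that differed, at -0.07 and 0.68. Acaca, acetyl-CoA carboxylase, had -0.30 and -0.14 over 2 probes at -0.69 and 0.25 and did not pass. Scd1 and Fasn did not pass in the shared-spread fit.

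Fatty acid uptake and droplet genes included 4 that rose and 3 that fell among 21 (33.3% changed, against 20.7% of all genes). Cd36, the fatty acid translocase, rose to 1.44 and 1.05 (2.37-fold, adjusted p = 0.00861), and Fabp5, the fatty acid binding protein of macrophages and skin, to 1.04 and 1.5. Fabp2, the intestinal form, had 1.62 and 0.66, and Pnpla2, a triglyceride lipase, 0.29 and 0.33. Fabp1, the liver form, was lower at -1.09 and -0.87. Slc27a2, a very long chain acyl-CoA synthetase, had -0.76 and -0.37 and Fitm1 -0.41 and -0.42. Of these 7, Cd36 and Fabp5 alone passed in the shared-spread fit.

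Of 15 genes of triglyceride and phospholipid assembly 4 fell and none rose (26.7% changed, against 20.7% of all genes). Dgat1, which makes triglyceride, had -1.10 and -1.24, but its 2 probes disagreed, with means of -2.24 and -0.10. Mttp, which loads lipid onto apolipoprotein B, had -0.48 and -0.47. Chpt1 and Mogat1 fell by less, and of the 4 Dgat1 alone passed in the shared-spread fit.

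For 19 mitochondrial oxidation and ketogenesis genes the median was 0.28 at 6 weeks and -0.25 at 24 weeks. On both arrays 3 lay above 0 and 3 below 0, against 5097 and 5622 of all 13717 genes. Eci2 rose (0.47 and 0.41) and Cpt2, the inner carnitine palmitoyltransferase, fell (-0.46 and -0.71). The share changed was 10.5%, against 20.7% of all genes. Of 26 genes of peroxisomal oxidation and other targets of PPAR alpha, the fatty acid receptor, 3 fell and none rose, with medians of -0.02 and -0.39. These 3 were 11.5% of the list, near the 11.4% of all genes lower. Cyp4a10, an omega-hydroxylase of fatty acids, had -0.70 and -1.15, Cyp4a12a -0.88 and -1.20, and Acaa1b, a peroxisomal thiolase, -0.85 and -0.55. Eci2 and Acaa1b did not pass in the shared-spread fit. Cyp4a14 was near chow at 6 weeks (-0.27) and low at 24 weeks (-1.86), and Cyp4a31 likewise (-0.13 and -1.56), so neither passed. Ppara itself had -0.07 and -0.10 and Pparg 0.40 and 0.01. The 69 respiratory chain genes had medians of 0.24 and -0.03, with 4 higher and none lower (5.8% changed, against 20.7% of all genes).

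**Figure D3:**
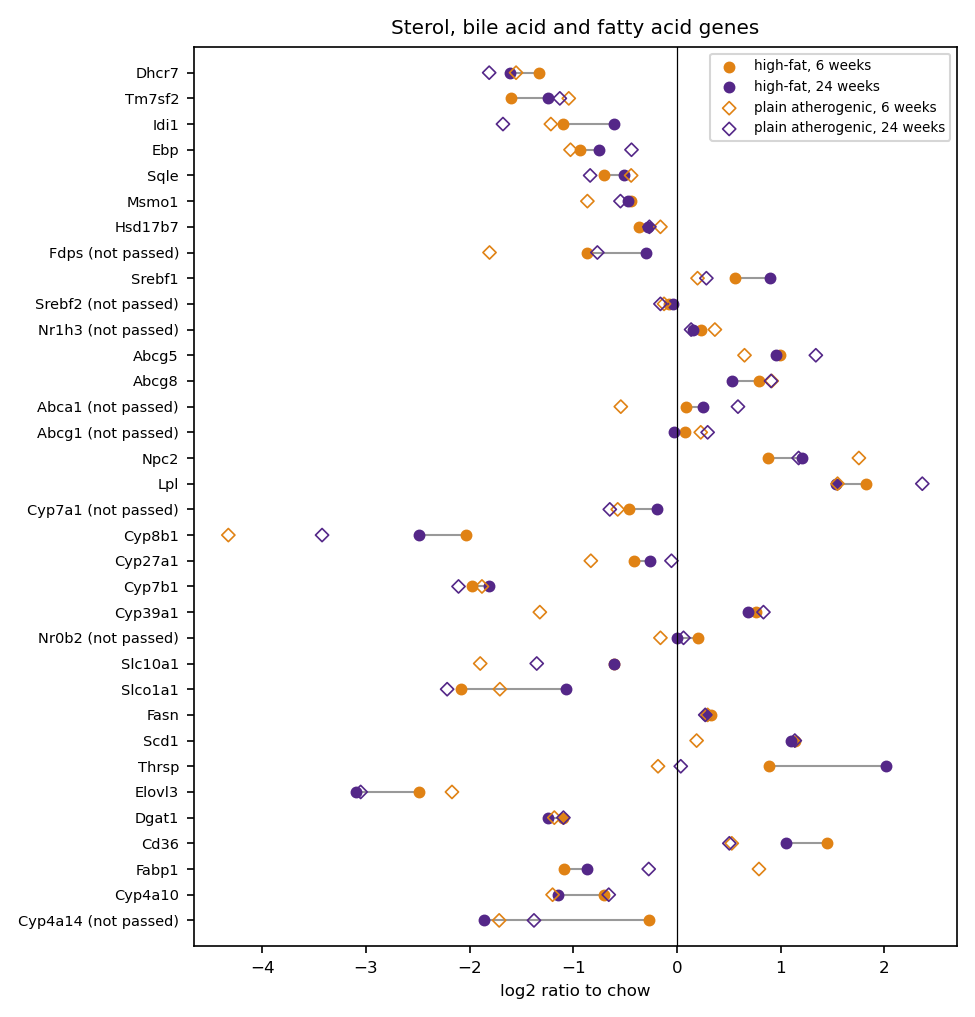
Log2 ratios to chow of sterol, bile acid and fatty acid genes on the high-fat arrays (filled circles, 6 weeks orange and 24 weeks purple, joined by a line) and on the plain atherogenic arrays (open diamonds). Genes marked as not passed had an adjusted p of 0.05 or more on the high-fat arrays. Dhcr7 to Hsd17b7 lie below 0, Abcg5, Abcg8, Npc2 and Lpl above 0, and Cyp8b1 lies less far below chow on the high-fat arrays (-2.04 and -2.49) than on the plain ones (-4.33 and -3.42).

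Few genes differed strongly between the high-fat arrays by duration: 26 were at least 1 log2 unit higher at 24 weeks and 15 at least 1 unit lower. These are differences between 2 arrays with no test. The highest included Cyp2c29, a xenobiotic cytochrome, from -0.54 to 1.02, Gstm1, a glutathione transferase, from -0.11 to 1.30, Dnajb12 from -1.59 to -0.15, and S100a9 from 1.48 to 2.98. The lowest were Sult2a2, a sulfotransferase of sterols and bile acids, from 2.15 to 0.16, Cyp4a14, Cyp4a31, and Cplx1 from -0.48 to -1.89.

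Of 25 xenobiotic cytochromes 5 rose and 5 fell (40% changed, against 20.7% of all genes). Cyp2b9, a female-biased cytochrome, rose to 1.49 and 1.74 (3.07-fold, adjusted p = 0.00381), Cyp2c55 to 1.72 and 0.94 and Cyp2a5 to 0.60 and 1.55. Cyp2d9, a male-biased one, fell to -0.87 and -0.68. In the shared-spread fit 1 was higher and 1 lower (against 315 and 513 of 13705 genes), and Cyp2b9 was not among them. Of 40 conjugation enzymes and carboxylesterases 10 rose and 8 fell (45% changed). Gsta2 and Gsta1, glutathione transferases of the alpha class, rose to 1.31 and 2.47 and to 0.93 and 1.91, and Mgst3, a microsomal form, to 1.11 and 1.18. Mgst1 stood at -1.32 and -1.28, the latter a value repeated over many probes. Of 27 antioxidant enzymes 4 were higher and 3 lower (25.9% changed, against 20.7% of all genes). Gpx1, glutathione peroxidase, fell to -1.14 and -0.71 (adjusted p = 0.0159), Selenop, the selenium carrier, to -0.50 and -0.51 and Cat, catalase, to -0.51 and -0.41. Gpx4 had 0.35 and 0.49 over 2 probes at -0.05 and 0.90, and Hmox1, haem oxygenase, 0.50 and 0.31. Sod1 had -0.60 and -0.26 (adjusted p = 0.0502). Cat, Gpx4 and Hmox1 did not pass in the shared-spread fit.

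Of 14 measured male-biased liver genes, which depend on the pulsed growth hormone of male mice, 13 fell and none rose (against 11.4% of all genes lower), with medians of -0.90 at 6 weeks and -0.92 at 24 weeks. Elovl3, Cyp7b1, Slco1a1 and Cyp2d9 above are members. C6, a component of the complement membrane attack complex, had -1.73 and -1.59 (3.16-fold lower, adjusted p = 0.00348), C8b -0.93 and -1.01, and Cyp4a12a is given above. Without probes at repeated values 11 of 13 were lower, and in the shared-spread fit 8 of 14 (against 513 of 13705 genes). Of 16 female-biased genes 4 rose and 4 fell (50% changed, against 20.7% of all genes), with medians of 0.06 and -0.10. Cyp2b9 and Rtn4 (1.22 and 1.20) rose and Cyp4a10 fell.

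Of 30 hepatocyte markers 14 fell, 2 rose and 14 did not pass (against 11.4% and 9.34% of all genes), with medians of -0.82 at 6 weeks and -0.39 at 24 weeks. Some probes shared 1 value, -1.35 on the 6-week array and -1.28 on the 24-week array: 52 probes, 31 of them naming 28 genes, lay at it on at least 1 of the arrays and 20 on both. Alb, serum albumin, had all 3 of its probes at it on the 24-week array and 2 on the 6-week array (means of -1.34 and -1.28), and Ttr, transthyretin (-1.35 and -1.27), and Serpina1a, alpha-1 antitrypsin (-1.35 and -1.25), lay at it or close to it. What set these values was not tested, and their ratios are given as deposited. Without probes at repeated values 10 of 26 hepatocyte markers were lower and 2 higher. Of those free of such probes, Fgb, the fibrinogen beta chain, had -1.28 and -1.26 and Apoc1 -1.22 and -1.13, both close to the repeated value. Apoa2 had -0.84 and -0.98. Among all 30 hepatocyte markers 5 lay below -1 on both arrays, and 5 lay within 0.25 of the repeated value on both, as did 53 of all genes. Apoc2 rose to 0.78 and 0.95. In whole liver, fewer cells of a type and less RNA per cell cannot be told apart.

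Of 18 apolipoproteins 5 were lower and 3 higher (44.4% changed, against 20.7% of all genes). Of 36 coagulation and complement genes 7 fell and 2 rose, 25% against 20.7% of all genes, with medians of -0.16 and -0.08; Hc, complement C5, had -0.86 and -0.39 and Serpinc1, antithrombin, -0.80 and -0.41. In the shared-spread fit 2 of the 36 were lower (against 513 of 13705 genes), and Hc and Serpinc1 were not among them. Of 31 genes of glucose metabolism and insulin signalling 4 fell and 2 rose, a share of 19.4%. Igf1, the growth hormone dependent growth factor, had -0.58 and -0.84 and G6pc, glucose-6-phosphatase, -0.69 and -0.63; G6pc did not pass in the shared-spread fit.

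Of 25 Kupffer cell and macrophage markers 11 rose, 3 fell and 11 did not pass (against 9.34% of all genes higher and 11.4% lower), with medians of 0.41 and 0.23. Beside Ctss and Lyz1, Tyrobp, a signalling adaptor of myeloid cells, rose to 1.47 and 1.80 (3.10-fold, adjusted p = 0.00461). The 3 that fell were Vsig4, a complement receptor of resident Kupffer cells, at -1.46 and -2.38 (3.78-fold lower, adjusted p = 0.0133), Cd163, a haemoglobin scavenger receptor, at -0.79 and -0.54, and Cd83 at -0.25 and -0.48, which did not pass in the shared-spread fit. Vsig4 thus lay far below chow on the same arrays on which Ctss lay far above it.

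Genes of lipid-associated macrophages, the form described in fat-laden tissue, had the highest list medians, 0.92 at 6 weeks and 0.74 at 24 weeks. Of 22 measured 15 rose and 1, Apoe, fell (against 9.34% and 11.4% of all genes). In the shared-spread fit 10 were higher (against 315 of 13705 genes). Gpnmb, a lysosomal membrane glycoprotein, had 2.02 and 1.38 (3.25-fold, adjusted p = 0.00949), Clec7a, the receptor dectin-1, 1.48 and 1.89, and Anxa2 1.46 and 1.75. Trem2, the lipid receptor that marks these cells, rose to 0.96 and 0.78 and Cd9 to 1.11 and 1.73. Mmp12, macrophage elastase, had 1.69 at 6 weeks and 0.70 at 24 weeks and did not pass in the shared-spread fit. Of 5 NADPH oxidase genes, which make the oxidative burst, 3 rose and 1 fell (80% changed, against 20.7% of all genes). Cybb had 0.61 and 0.50, and Cyba 0.43 and 0.59 as the mean of 2 probes that differed in sign, at -0.41 and 1.43. Ncf4 had 0.25 and 0.38 and Rac2 -0.34 and -0.54, these last 2 not passing in the shared-spread fit.

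Of 11 genes of MHC class II and antigen processing 6 rose and none fell (54.5% changed, against 20.7% of all genes). H2-Aa is given above. H2-Eb1 had 1.19 and 1.76 over 7 probes with means between 0.23 and 2.22, H2-Ab1 1.05 and 1.64 over 5 probes between -0.30 and 2.17, and Cd74, the invariant chain, 1.01 and 1.32 over 3 probes between 0.13 and 2.27. The probes of these genes disagreed in size by far more than the arrays did.

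Of 39 chemokines and cytokines 9 rose and 2 fell (28.2% changed, against 20.7% of all genes). Ccl9 and Ccl5, which recruit myeloid cells and T cells, were higher at 6 weeks than at 24 weeks (2.37 and 1.0, and 1.64 and 0.76). Il1rn, the interleukin-1 receptor antagonist, had 0.88 and 0.80. Ccl2, the monocyte attractant, stood at 1.57 at 6 weeks and 0.36 at 24 weeks and did not pass (adjusted p = 0.0807), and Tnf (0.11 and 0.11) and Il1b (0.49 and -0.30) did not pass either. The 2 that fell were Cx3cl1 (-0.94 and -0.55) and Ifng (-0.31 and -0.29). Ccl9, Ccl5, Cx3cl1 and Ifng did not pass in the shared-spread fit.

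Interferon response genes changed in both directions, with 9 higher and 6 lower of 37 (40.5% changed, against 20.7% of all genes). Ifi27l2a (1.20 and 1.37) and Ly6e (0.86 and 1.11) rose. Oas3, a sensor of double-stranded RNA, fell (-0.63 and -1.03), though its 2 probes had means of -1.77 and 0.11. Of 26 acute phase genes 9 rose and 3 fell (46.2% changed). Saa2, a serum amyloid A, had 1.79 and 1.72 (3.37-fold, adjusted p = 0.00285) and Saa3 1.68 and 0.75, while Saa1 had 0.10 and 0.05. Hamp, the iron hormone hepcidin, had 0.56 and 0.54. Oas3 and Hamp did not pass in the shared-spread fit. Saa genes are near copies, so their probes may not separate them.

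Of 15 neutrophil markers S100a8, S100a9 and Lcn2 rose, while the granule genes Elane (-0.57 and -0.73) and Mpo (-0.39 and -0.26) fell. The share changed was 33.3%, against 20.7% of all genes. Of 27 lymphocyte and natural killer markers (25.9% changed) 5 rose, led by Cd53 (1.18 and 1.02) and Coro1a (0.90 and 1.07), and Thy1 and Gzmk fell. Vcam1, the adhesion receptor of inflamed endothelium, had 0.65 and 0.90. Of 20 endothelial markers Vwf alone passed (0.28 and 0.34), a share of 5%. Mpo, Gzmk, Vcam1 and Vwf did not pass in the shared-spread fit.

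Of 44 collagen and matrix genes 12 rose, 6 fell and 26 did not pass (against 9.34% of all genes higher and 11.4% lower), with medians of 0.09 and 0.16. Col1a2 had 1.82 at 6 weeks and 2.08 at 24 weeks (3.86-fold, adjusted p = 0.0038) and Col5a2 1.88 and 1.62 (3.36-fold, adjusted p = 0.0038). Col3a1 had 1.43 and 1.0 as the mean of 3 probes between -0.10 and 2.55, and it did not pass with the median of its probes. Col1a1, the partner of Col1a2 in type I collagen, had 0.73 and 0.42 over 5 probes between 0.04 and 1.09. Sparc, a collagen-binding protein, had 0.81 and 1.19. In the shared-spread fit 4 of the 44 were higher (against 315 of 13705 genes). Col1a2, Col5a2 and Col3a1 were among them and Col1a1 and Sparc were not.

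Of 28 matrix proteases and inhibitors 6 rose and 4 fell (35.7% changed, against 20.7% of all genes). Beside Mmp7 and Mmp12, Mmp2, a gelatinase, had 0.88 and 1.59, and Timp1, an inhibitor of these proteases, 0.47 and 0.37. Plau, urokinase, fell (-0.61 and -0.53). In the shared-spread fit Mmp7 was the only one higher. Of 28 genes of stellate cells and TGF-beta signalling 5 rose and 4 fell (32.1% changed), with medians of 0.03 and 0.05. Vim, vimentin, had 1.18 and 1.09 and Tgfbi 0.60 and 0.84, while Pdgfra had -0.32 and -0.71 and did not pass in the shared-spread fit. Acta2, the smooth muscle actin of activated stellate cells, had 0.16 and 0.26 (adjusted p = 0.0945) and Tgfb1 0.22 and 1.04 (adjusted p = 0.0905).

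Of 17 bile duct cell markers 8 rose, none fell and 9 did not pass (against 9.34% of all genes higher), with medians of 0.44 and 0.61. Beside Tspan8, Anxa5 had 0.83 and 1.5, Bicc1 0.83 and 1.11 and Krt8, a keratin also made by hepatocytes, 0.79 and 1.11. In the shared-spread fit 3 of the 17 were higher (against 315 of 13705 genes), without Anxa5 and Bicc1. Of 26 annexins and S100 genes, several of them members of the lists above, 12 rose and 1 fell (50% changed, against 20.7% of all genes). Among them S100a11 had 1.59 and 2.02 (3.50-fold, adjusted p = 0.00519).

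**Figure D4:**
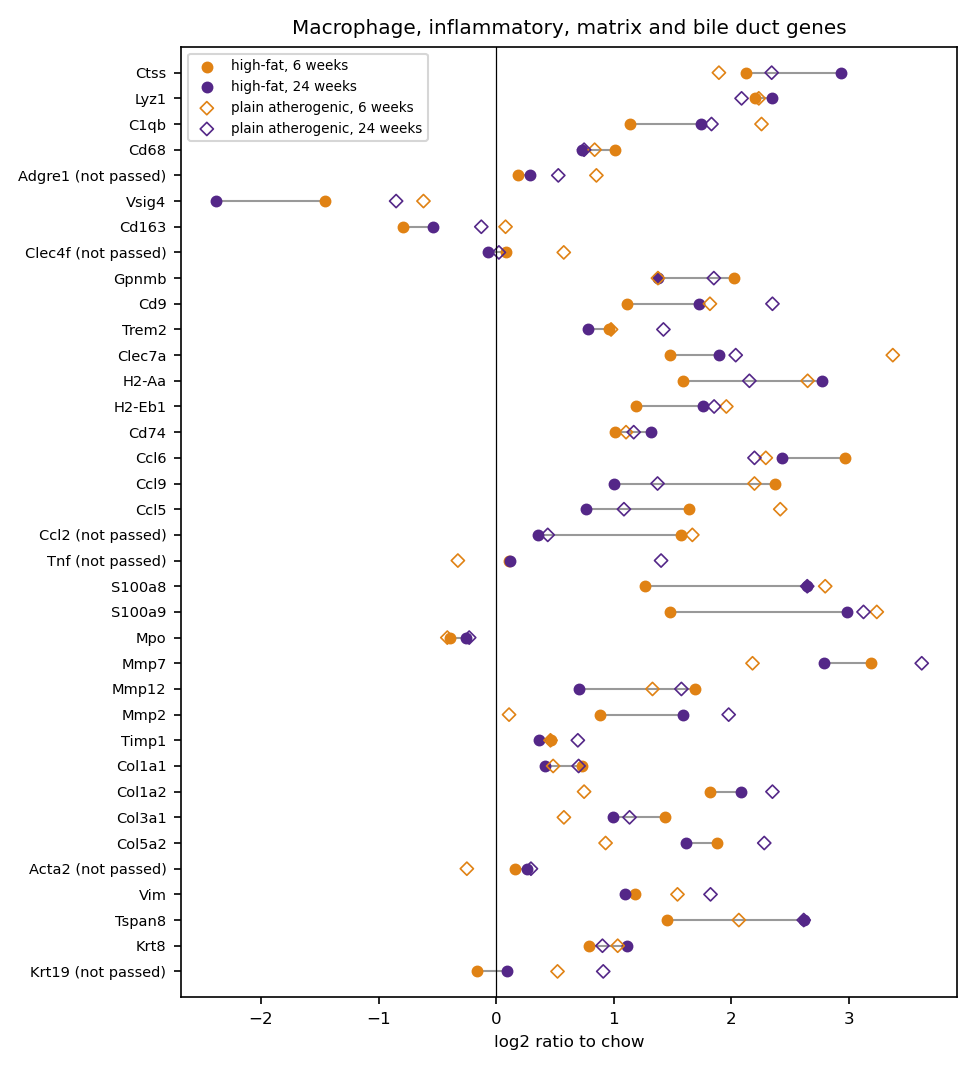
Log2 ratios to chow of macrophage, inflammatory, matrix and bile duct genes on the high-fat arrays (filled circles, 6 weeks orange and 24 weeks purple, joined by a line) and on the plain atherogenic arrays (open diamonds). Genes marked as not passed had an adjusted p of 0.05 or more on the high-fat arrays. Ctss, Lyz1, Ccl6, Mmp7 and Col1a2 lie well above 0, and Vsig4 lies at -1.46 and -2.38.

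Of 69 cytosolic ribosomal protein genes 38 rose and none fell (against 9.34% of all genes higher), with medians of 0.32 at 6 weeks and 0.65 at 24 weeks. In the shared-spread fit 19 were higher (against 315 of 13705 genes), without Rpl32. Rps15a had 1.09 and 0.90, Rps3a1 0.97 and 0.95, Rpl19 0.99 and 0.91 and Rpl32 0.99 and 1.17. Many of these genes have processed copies in the genome that a probe may not separate. Of 38 cell cycle genes 9 rose and 3 fell (31.6% changed, against 20.7% of all genes). Plk1, a mitotic kinase, was lower (-1.61 and -2.19, 3.74-fold lower, adjusted p = 0.00692), and Gadd45a (0.65 and 0.96), Cdk4 (0.47 and 0.70) and Ccnb2 (0.50 and 0.53) were higher.

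Among the lists with few changes was endoplasmic reticulum stress, with 2 of 35 higher (Pdia3 at 0.58 and 0.49, Ddit3 at 0.41 and 0.27). Nuclear receptors were another, with Nr2f1 alone lower among 33. Their shares changed were 5.71% and 3.03%, against 20.7% of all genes. The circadian clock list, with Dbp and Tef higher and Per1 lower among 16, had a share of 18.8%, near that of all genes. Of 21 genes of iron, copper and metallothionein 5 rose and 2 fell (33.3% changed). Among them Blvrb, a biliverdin reductase, had 1.03 and 0.81 and Ftl1, the ferritin light chain, -0.87 and -0.53. Markers of other tissues gave 1 lower gene of 15 for pancreas and muscle (Myh1, -0.34 and -0.47), 2 of 8 for adipocytes (Car3, -0.59 and -0.71, and Ucp1, -0.31 and -0.42) and 1 of 6 for red cells (Alas2, -0.64 and -0.45). Their shares were 6.67%, 25% and 16.7%, against 11.4% of all genes lower. Of the genes named here, Nr2f1, Blvrb, Ftl1 and Car3 kept their calls in the shared-spread fit and the others did not.

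**Figure D5:**
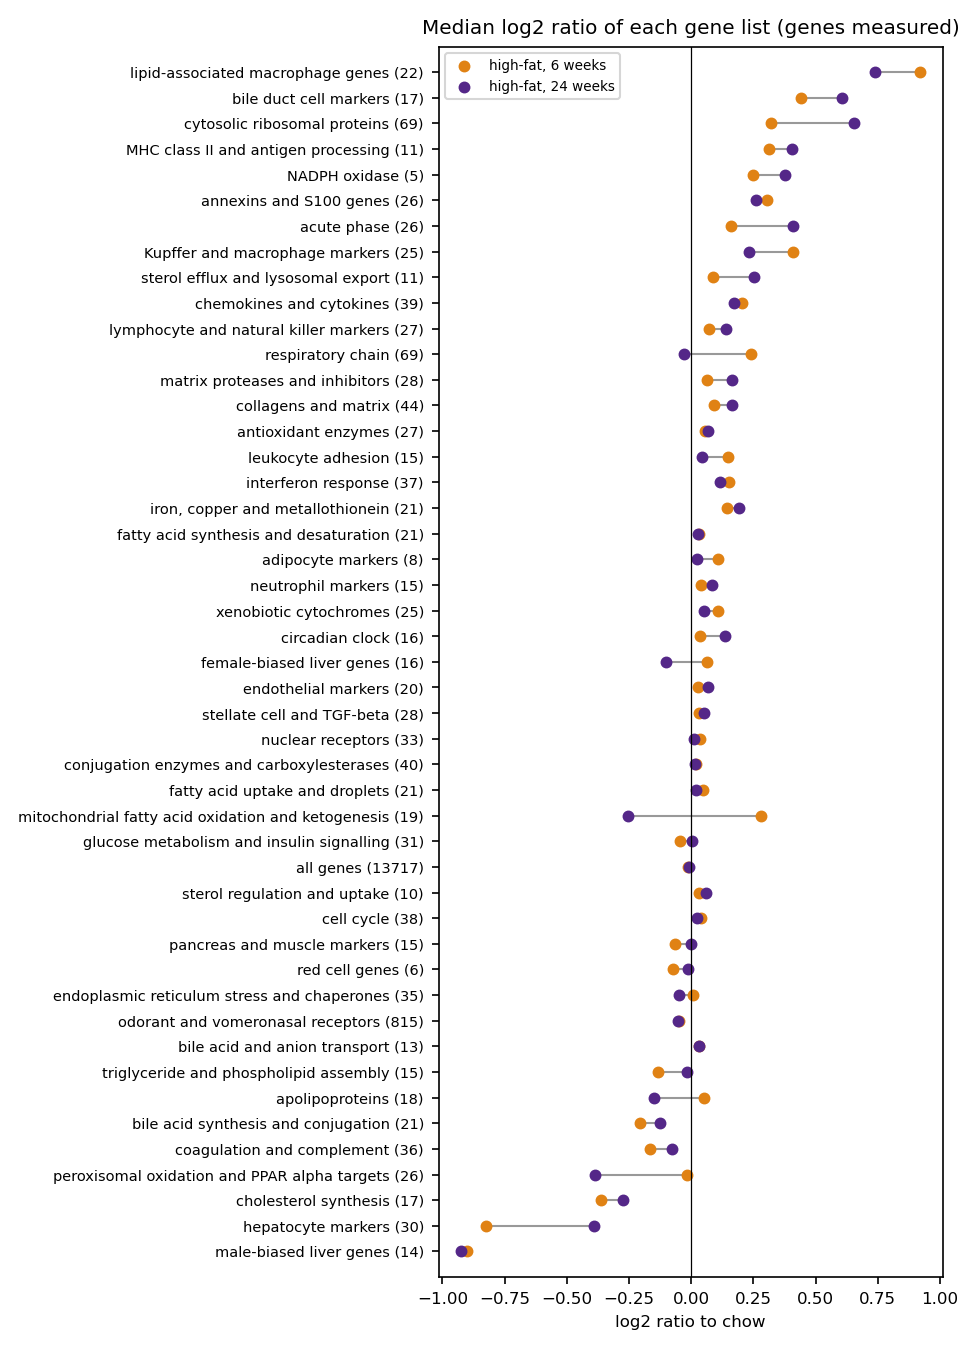
Median log2 ratio to chow of each gene list on the 6-week (orange) and 24-week (purple) high-fat arrays, ordered by the median of the genes' means, with the number of genes measured in brackets. Lipid-associated macrophage genes lie highest (0.92 and 0.74) and male-biased liver genes lowest (-0.90 and -0.92). All 13717 genes have a median of -0.01 on either array.

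High-fat livers also differed from livers of the plain atherogenic diet at the same durations. In an additive limma model of diet and duration over 13705 genes on all 4 arrays, with 1 residual degree of freedom, 1541 genes (11.2%) passed, 547 (3.99%) with a higher and 994 (7.25%) with a lower ratio under high fat. Centring or scaling of the arrays kept this count within 1.5 times. With 1 array left out, a different model was fitted, with a mean per diet and no duration term. It left 1 of the diets with 1 array, and how many genes passed depended strongly on which array was left out.

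Cyp8b1 was lowered less with high fat: -2.04 and -2.49 against -4.33 and -3.42 on the plain diet, a difference of 1.61 ± 0.29 SE (adjusted p = 0.023). With the arrays scaled to a common spread the difference was 0.27 and did not pass (adjusted p = 0.397). Thrsp (0.88 and 2.01 against -0.18 and 0.04, adjusted p = 0.0187) and Cyp2b9 (1.49 and 1.74 against -0.78 and 0.63, adjusted p = 0.0187) were higher with high fat. Cd36 was higher by 0.73 (1.44 and 1.05 against 0.53 and 0.50, adjusted p = 0.0329). Car3, a carbonic anhydrase of hepatocytes and fat, was lowered less, at -0.59 and -0.71 against -2.08 and -2.29 (adjusted p = 0.00729). Slc10a1 likewise had -0.61 on both arrays against -1.90 and -1.35 (adjusted p = 0.021). With scaled arrays the differences of Car3 and Slc10a1 shrank from 1.53 to 0.95 and from 1.02 to 0.53 and that of Cd36 grew to 1.13, and all 3 still passed. Among the conjugation enzymes 10 of 40 were higher and 2 lower than on the plain diet, and among the xenobiotic cytochromes 8 of 25 and 1, against 3.99% and 7.25% of all genes.

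Of 30 hepatocyte markers 16 had lower ratios than on the plain diet and 3 higher, with a median difference of -0.84 against -0.06 over all genes. Their plain-diet medians were 0.13 and 0.36. Serpina1a had -1.35 and -1.25 against 0.86 and 0.59, Serpina1b -1.35 and -1.28 against 0.79 and 0.58, and Mgst1 -1.32 and -1.28 against 0.86 and 0.59. These genes had probes at a repeated value on a high-fat array, and the plain 24-week array had a repeated value of its own at 0.58, close to theirs. Gpx1 (-1.14 and -0.71 against 0.87 and 0.59, adjusted p = 0.0139) lay close to it on the plain array only. Without probes at repeated values 8 of 22 hepatocyte markers were lower and 3 higher than on the plain diet, with a median difference of -0.21. Fgb, with -1.28 and -1.26 against 0.28 and 0.19, and C6, with -1.73 and -1.59 against -0.11 and 0.19, had no probe at these values. The high-fat ratios of Fgb lay close to them.

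Several inflammatory genes had smaller rises with high fat in values as deposited, and the high-fat ratios were narrower as a whole. Vcam1 had 0.65 and 0.90 against 1.46 and 1.99 (adjusted p = 0.0194), Cybb 0.61 and 0.50 against 1.5 and 1.57 (adjusted p = 0.0187) and Saa3 1.68 and 0.75 against 2.26 and 1.95 (adjusted p = 0.0298). With the arrays scaled to a common spread, Vcam1, Cybb and Saa3 no longer passed (adjusted p = 0.0746, 0.0529 and 0.662). Vsig4 was lowered more (-1.46 and -2.38 against -0.62 and -0.85, adjusted p = 0.0194), by -1.18 in values as deposited and -1.80 in scaled ones. Of 25 Kupffer cell and macrophage markers 5 had lower ratios and none higher, of 22 lipid-associated macrophage genes 4 and none, and of 37 interferon response genes 7 and none, against 7.25% of all genes lower. With scaled arrays the counts of lower and higher genes were 5 and 3, 2 and 1, and 6 and 1 in these lists. Over all 13705 genes they were 1141 and 628. The median difference of the lipid-associated macrophage genes turned from -0.25 to 0.08 with scaling. Mmp7, Ctss, Lyz1, Elovl3, Cyp7b1 and Dhcr7 did not pass in this comparison, with differences between -0.18 and 0.41. For Mmp7 the difference of 0.09 was the mean of opposite values, 1.01 at 6 weeks and -0.83 at 24 weeks.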

How the data were processed

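Per the series' design text, the arrays were AceGene Mouse Oligo Chip 30K, spots were read with GenePix Pro 4.1 and ratios were LOWESS-normalized in GeneSpring 7.2. The authors deposited 1 signed log ratio per probe and array, read here as log10 of Cy5 (diet) over Cy3 (chow). The base is inferred: an interquartile range of 0.108 on either high-fat array is a ratio difference of 28.2% in base 10 and 7.77% in base 2. The direction follows the dyes in the labels, and whether values were centred after LOWESS is unknown. As a median the deposited values had 0.006 on both high-fat arrays, -0.019 on the plain 6-week and -0.005 on the plain 24-week array. No spot signal or background value was used here, so precision rests on 1 array per condition.

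Values were turned into log2. Of 28845 probes, 17637 named 1 gene symbol, 64 several and 11144 were not listed in the platform annotation; symbols were updated through RefSeq GRCm38.p6, which did not match 252 probes. Probes without a value on a high-fat array (911) were left out. Probes of 1 gene were averaged (2771 genes had several), with a pooled SD between them of 0.34 at 6 weeks and 0.37 at 24 weeks. Tests used limma 3.58.1 in R 4.3.3 (two-sided, Benjamini-Hochberg over all genes, 1 residual degree of freedom, prior degrees of freedom 3.55 for diet over chow and 6.40 for high fat minus plain) and were tested on simulated data. Alternatives were centring, scaling, probe handling, repeated values (probes within 0.003 of a shared log10 value), thresholds, log base, models and leaving out arrays.

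The members, the 45 gene lists, the tests and the naming rule were chosen with earlier results of these data known. Named were the 12 largest rises and falls that passed, up to 4 passing members per list or 2 as values where none passed, the 4 genes highest and 4 lowest by duration, the 5 genes higher and 5 lower against the plain diet, and a set of 36 key genes, 32 of them measured. Predicted genes were passed over. Further members of short lists, those in the plots and Msmo1, Hsd17b7, Trem2 and Cd9 were chosen after their values were seen. Upstream sequences are RefSeq's for GRCm38.p6, matched by symbol.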

Additional observations from a re-analysis of the deposited data

Results flagged for a closer look

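The results here were set apart because a limma test of high fat minus plain atherogenic diet passed for a gene named above; values are differences in log2 ratio, and array values are given for 6 and then 24 weeks.

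Among lipid and bile acid genes, Cyp8b1 differed by 1.61 and Thrsp by 1.52, with Cd36 at 0.73 and Car3 at 1.53. Cyp2b9, a cytochrome, differed by 1.69. SVIL, named as the annotation spells it, differed by 1.55, with 1.73 and 0.78 under high fat against -0.41 and -0.18. Without the plain 24-week array the calls of Thrsp, Cd36 and SVIL ended, and scaling ended that of Cyp8b1, moved Car3 to 0.95 and moved Cd36 to 1.13.

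Genes at or close to repeated values had the largest negative differences after Mrgpra4 among the named genes. Mgst1 differed by -2.02, Serpina1a by -2.02, Serpina1b by -2.0 and CYTB, mitochondrial cytochrome b, by -1.99, with CYTB at -1.35 and -1.28 against 0.76 and 0.59. Gpx1 differed by -1.66. Mrgpra4, a receptor of sensory neurons, differed by -2.24, and its difference came from the plain arrays (2.91 and 1.22), since it lay at -0.12 and -0.24 under high fat.

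Among the largest rises and falls, Snx4 differed by 0.55 and Nelfa by 1.01, both higher under high fat. Nudt12os differed by -1.38, Zfp764 by -0.95, Rnf103 by -0.82 and Vmn1r179 by -0.65, all lower under high fat. Nudt12os had -3.89 and -2.98 against -2.21 and -1.90. Of these 6, Vmn1r179 alone passed without the plain 24-week array. With arrays scaled to a common spread all 6 differences grew by over 1.5 times, to 1.33 for Snx4, 1.68 for Nelfa, -2.63 for Nudt12os, -1.92 for Zfp764, -1.72 for Rnf103 and -1.74 for Vmn1r179.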

How the results depend on the processing

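Of 2838 genes that passed for high fat over chow, counts stayed within 1.5 times with centring, scaling, medians of probes, single-probe genes, repeated or missing values left out, robust moderation, and diet and duration terms. They moved to 5539 with probes fitted singly (named or not), 828 with a mean per diet over 4 arrays, 4828 and 391 at adjusted p thresholds of 0.1 and 0.01, and 0 to 0 without either array. The 1541 genes of high fat minus plain moved to 4411 with single probes (55.3% higher, against 35.5%), to 3269 and 23 at thresholds of 0.1 and 0.01, and to between 0 and 2643 without 1 array. The 199 genes 2-fold on both arrays became 461 with single probes, 637 at 1.5-fold, 51 at 3-fold, 12 with values read as natural logarithms, 1 read as log2, and 275 to 345 on 1 array alone. Of the 189 named genes, 62 lost their call with a mean per diet over 4 arrays, 166 without the 6-week and 166 without the 24-week array, and none reversed a call. Of 40 named genes that passed for high fat minus plain, 6 lost the call with scaled arrays and 13 without the plain 24-week array. The cause was not tested, beyond fewer samples or more features in those settings. For high fat minus plain, the fits without 1 array also had no duration term. No paired analysis was possible because the labels give no replicate numbers; the model of high fat minus plain already sets the diets against each other within each duration. Signal over background was not used here, so its limits on dim probes are unknown.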
